A study of Mus musculus with 20 samples.

Results

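The 10 genes described here encode the mouse MHC class I molecules H2-K1 and H2-D1 with their light chain B2m, the peptide loading proteins Tap1, Tap2 and Tapbp, the immunoproteasome subunits Psmb8, Psmb9 and Psmb10, and the transactivator Nlrc5. They were chosen by name, with earlier results of these data known. All 10 were found among the 50600 gene names of each table and passed every filter on low values. RNA was measured by CEL-Seq, which barcodes the 3′ end of polyadenylated transcripts, in 20 libraries of eosinophils and macrophages sorted by flow cytometry from digested colons of C57BL/6 wild-type mice. There were 7 libraries of eosinophils that the labels call intratumoral and 2 of eosinophils from naive colons, and 6 of intratumoral macrophages and 5 of macrophages from naive colons. Tumors followed an induction that the labels call CAC. No source used here gives the agents, times and ages behind it, or the markers used for sorting. Nothing in the labels says that the libraries of a group came from separate mice, so p-values measure the spread between these libraries, which may be technical.

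MHC class I molecules carry peptides of the cell's own proteins to its surface, where CD8 T cells and natural killer cell receptors read them. The proteasome cuts proteins into peptides, the transporter Tap1-Tap2 moves these into the endoplasmic reticulum, and tapasin (Tapbp) holds the empty heavy chain and B2m at the transporter until a peptide binds. Interferons raise most genes of this route, among them the immunoproteasome subunits that replace Psmb5, Psmb6 and Psmb7 in newly made proteasomes, and Nlrc5, which is recruited to class I promoters through their X and Y boxes.

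Of the 10 genes, 7 lie in the MHC region of chromosome 17 (GRCm38, annotation of GENCODE M21). H2-K1 spans chr17:33996017-34000347 (- strand), Tapbp chr17:33915899-33929292 (+), Psmb9 chr17:34181987-34187764 (-), Tap1 chr17:34187553-34197225 (+), Psmb8 chr17:34197721-34201454 (+), Tap2 chr17:34203527-34216321 (+) and H2-D1 chr17:35262730-35267499 (+). B2m lies at chr2:122147686-122153083 (+), and Psmb10 (chr8:105935735-105938444, -) and Nlrc5 (chr8:94434356-94527272, +) on chromosome 8. RefSeq (GRCm38.p6) gave the promoter of 8 of the 10, without Tap2 and Nlrc5. Shown are the 250 bases before the start of both heavy chains and of B2m, whose levels are compared below, of Tap1, whose start faces that of Psmb9, and of Psmb8, the one of the 8 with a GAS motif. The motifs found are in capitals. These are the NF-kB motif GGGATTCCC, the X2-like motif TGACGC, the CCAAT box (CCAAT, or ATTGG on the other strand), the paired IRF motif GAAANNGAA and the GAS motif TTCNNNGAA, each searched on both strands. The windows are chr17:34000348-34000597 (- strand) for H2-K1, chr17:35262844-35263093 (+) for H2-D1, chr2:122147437-122147686 (+) for B2m, chr17:34187306-34187555 (+) for Tap1 and chr17:34197945-34198194 (+) for Psmb8.
H2-K1: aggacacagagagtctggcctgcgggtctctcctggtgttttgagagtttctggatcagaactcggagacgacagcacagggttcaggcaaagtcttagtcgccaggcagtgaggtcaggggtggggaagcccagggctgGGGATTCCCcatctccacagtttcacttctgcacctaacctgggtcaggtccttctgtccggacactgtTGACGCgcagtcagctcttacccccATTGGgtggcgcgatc
H2-D1: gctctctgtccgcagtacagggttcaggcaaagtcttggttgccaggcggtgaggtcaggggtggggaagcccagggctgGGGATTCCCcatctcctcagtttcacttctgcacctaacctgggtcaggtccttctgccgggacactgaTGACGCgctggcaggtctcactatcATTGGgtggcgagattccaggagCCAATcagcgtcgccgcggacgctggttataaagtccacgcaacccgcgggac
B2m: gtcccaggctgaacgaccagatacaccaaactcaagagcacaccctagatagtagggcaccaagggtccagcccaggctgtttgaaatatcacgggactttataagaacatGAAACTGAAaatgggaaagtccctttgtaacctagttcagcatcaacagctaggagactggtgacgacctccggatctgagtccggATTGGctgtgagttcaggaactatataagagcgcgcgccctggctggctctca
Tap1: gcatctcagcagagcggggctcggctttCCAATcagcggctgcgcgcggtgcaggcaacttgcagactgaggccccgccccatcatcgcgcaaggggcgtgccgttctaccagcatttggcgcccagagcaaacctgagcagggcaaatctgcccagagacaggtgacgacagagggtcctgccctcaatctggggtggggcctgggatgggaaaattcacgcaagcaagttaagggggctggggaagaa
Psmb8: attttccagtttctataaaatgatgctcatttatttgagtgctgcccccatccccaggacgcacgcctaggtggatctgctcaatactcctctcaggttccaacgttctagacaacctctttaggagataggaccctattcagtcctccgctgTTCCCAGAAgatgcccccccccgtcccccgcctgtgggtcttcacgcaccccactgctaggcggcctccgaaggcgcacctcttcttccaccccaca
The H2-K1 and H2-D1 windows aligned over 177 columns, of which 161 (91.0%) were identical. Both held the NF-kB motif, at −110 from the start in H2-K1 and −170 in H2-D1, a motif that 116 of 32851 mouse promoter windows of 300 bases (0.353%) held. Both also held the X2-like motif (7.4% of windows), at −41 and −101, followed by CCAAT boxes (37.4% of windows). B2m held the paired IRF motif at −139 (8.56% of windows), and Psmb8 a GAS motif at −97 (8.3% of windows). The IRF search covered the spelling GAAANNGAA alone. Both heavy chain windows hold agtttcacttct, which that spelling does not match on either strand. A window without the paired IRF motif is therefore not shown to lack a site of this kind. The RefSeq starts of Tap1 and Psmb9 lie head to head 225 bases apart, so that their 300-base windows share 275 bases, read in opposite directions. By the GENCODE coordinates above, both genes overlap by 212 bases. A match of letters is a description and no measured binding site.

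Recovered depth was 1978466 to 8520874 reads in tumor eosinophil libraries and 4452513 and 7469714 in naive ones, and 2289383 to 7636153 in tumor macrophages against 1477255 to 7945096 in naive ones. A list of 11 eosinophil markers summed to 982 to 11433 CPM (counts scaled to a common library depth) in tumor and 2300 to 3478 in naive eosinophils, against 72.5 to 120 in tumor and 107 to 170 in naive macrophages. The macrophage list summed to 588 to 937 CPM in tumor and 810 to 1224 in naive eosinophils, against 9284 to 12090 in tumor and 9053 to 12692 in naive macrophages. Genes of neutrophils were present in the eosinophil sort (5507 to 17574 CPM in tumor and 7801 to 15953 in naive eosinophils), and 5 of the 12 passed the test as higher in tumors. In macrophages they summed to 108 to 712 CPM in tumor and 34.1 to 58.8 in naive libraries, and 5 of the 8 tested were higher in tumors. Other marker lists also moved with tumors. For comparison, 314 of all 12984 genes tested in eosinophils passed as higher and 287 as lower. For macrophages these were 979 and 993 of 11536. In eosinophils 3 of 11 eosinophil markers passed as lower and none as higher, while the median log2 change of the 11 was 1.73. Of 8 macrophage markers 2 were higher and 1 lower. In macrophages 4 of 11 macrophage, 7 of 10 dendritic cell and 5 of 8 stroma and endothelium markers were lower, and of 11 epithelial markers 3 were higher and 1 lower. Genes of B and plasma cells summed to 8352 to 18414 CPM in tumor and 6251 to 9293 in naive eosinophils, and to 7270 to 69595 in tumor and 16944 to 78010 in naive macrophages. Mitochondrial transcripts took 24.2 ± 8.28% of reads in tumor and 21.2 ± 4.70% in naive eosinophils (SD, n = 7 and 2), and 9.52 ± 0.81% in tumor and 11.4 ± 3.18% in naive macrophages (n = 6 and 5). The part of these transcripts in the results below was not tested. Since the samples are bulk RNA, fewer cells of a type and less RNA per cell cannot be told apart.

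Some libraries stood apart within their group. Tumor eosinophil libraries 1, 2 and 3 carried 6884, 6478 and 6104 CPM of 12 epithelial genes, against 2284 to 3042 in tumor libraries 4 to 7 and 3365 and 2387 in the naive libraries. The same 3 libraries lay at one end of the first component of the deviations from the group means, which held 39.6% of that variance over 3873 other genes, and they were the lowest of the 7 for 8 of the 10 genes (not for Tap2 and Psmb9). Libraries 2 and 3 also had the highest mitochondrial shares of the group, 34.9 and 35.2% of reads. Macrophage libraries fell into 2 sets along their first component (38.1% of the variance over 4365 other genes). Set A was tumor libraries 3 to 6 with naive libraries 2 and 4, and set B was tumor libraries 1 and 2 with naive libraries 1, 3 and 5. No label gives a batch. Depth was 5676284 to 7945096 reads in set A and 1477255 to 5956352 in set B. Both divisions were noticed after the values were seen, and results that rest on these libraries are given with and without them. Where tumor eosinophil libraries 1 to 3 are the lowest of their group, leaving them out raises the change by itself. P-values without them are therefore descriptive.

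**Figure D1:**
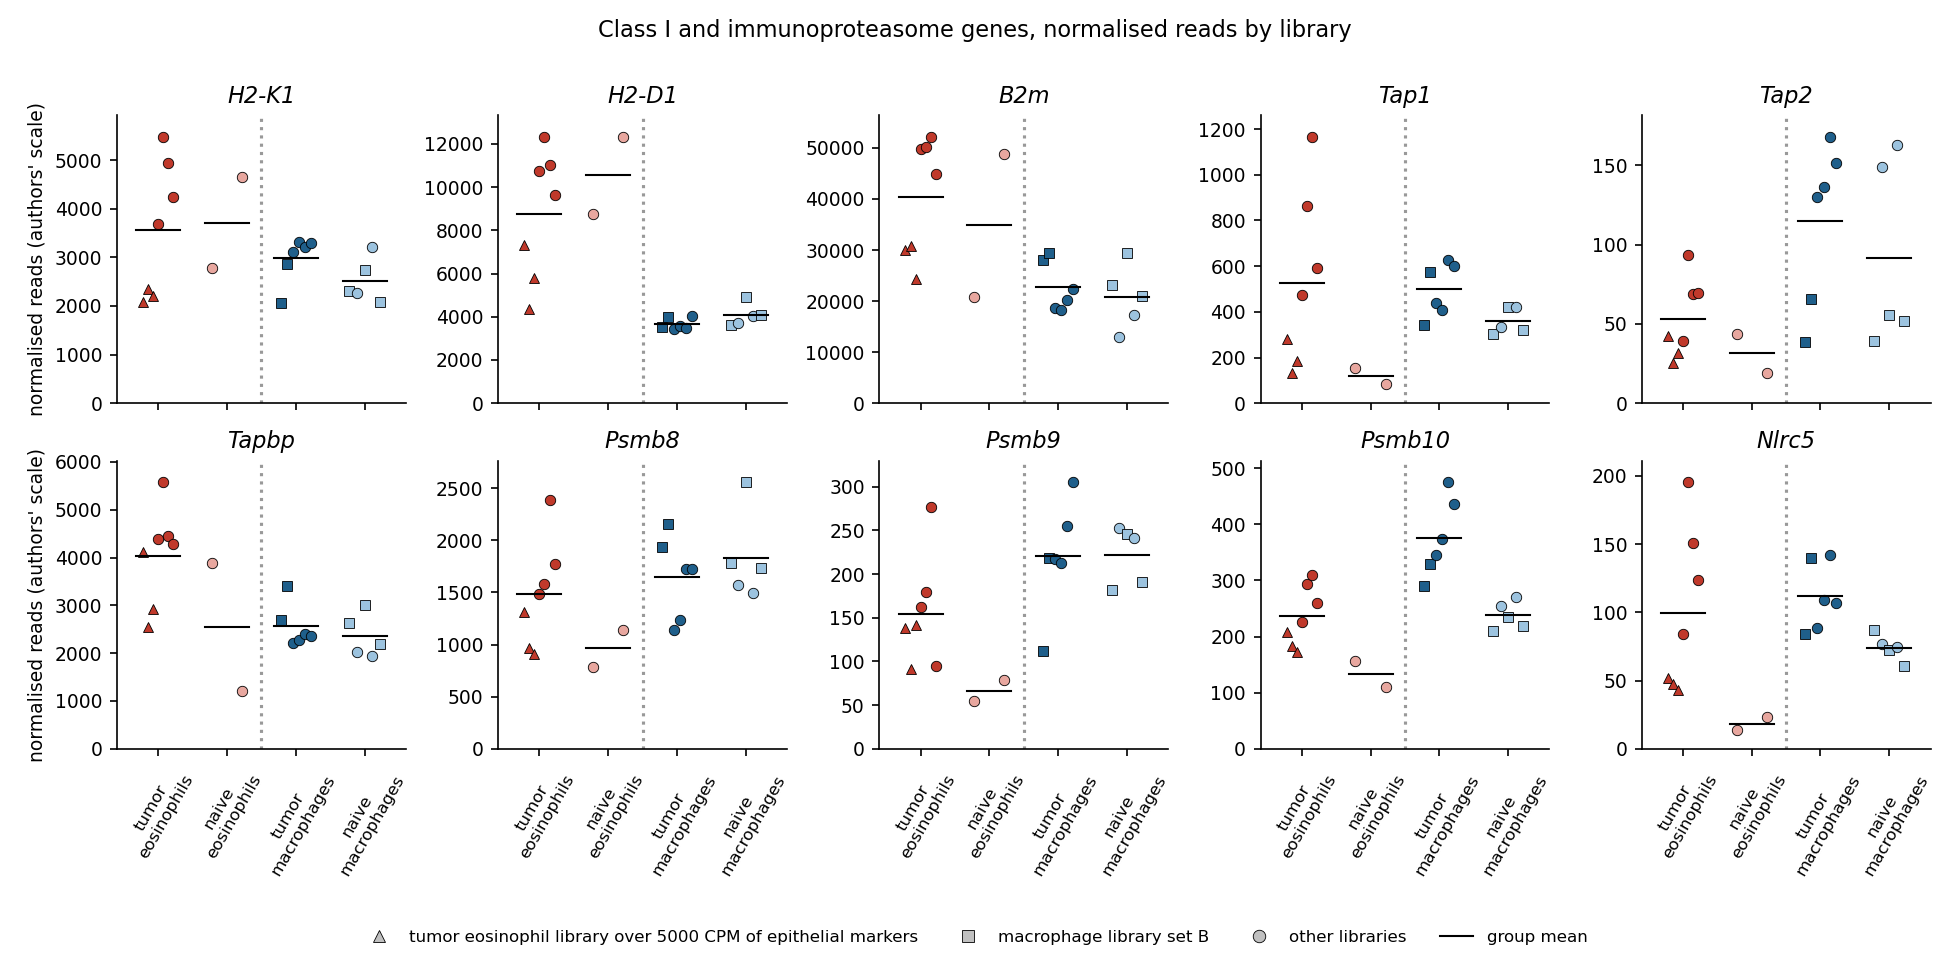
Normalised reads (linear axes from 0, each cell type scaled on its own) of the 10 genes in each library, with tumor libraries left of naive ones within each cell type; bars are group means, triangles tumor eosinophil libraries 1 to 3, squares macrophage set B and circles the others. Nlrc5, Psmb9 and Psmb10 of tumor eosinophils lie above both naive libraries, and Psmb10 of tumor macrophages lies above all 5 naive libraries.

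In tumor eosinophils, the transactivator Nlrc5 was the single one of the 10 genes that rose past the threshold, an adjusted p under 0.05 by limma over all 12984 genes tested. Of all genes, 4.63% passed it, 2.42% as higher. Nlrc5 averaged 99.6 ± 58.8 normalised reads in tumor and 18.4 ± 6.38 in naive eosinophils (SD, n = 7 and 2). Tap1, Psmb9 and Psmb10 had unadjusted p-values under 0.05 and did not pass after adjustment, so 4 of the 10 were under 0.05 before adjustment, against 19.7% of all genes. The heavy chains H2-K1 and H2-D1 had the 2 negative log2 changes, neither past the threshold. Over the 10 genes the median log2 change was 0.76 and 8 were positive, against a median of 0.0077 and 6539 positive among all 12984.

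Of the surface molecule itself, the heavy chain H2-K1 had 2083, 3696 and 5486 normalised reads in tumor eosinophils (lowest, median and highest of 7), against 2783 and 4648 in the naive libraries. The groups overlapped, and the log2 change was −0.11 ± 0.41 (SE, limma adjusted p = 0.916). H2-D1, the other classical heavy chain, had 4358, 9619 and 12343 reads in tumor eosinophils and 8753 and 12328 in naive ones (−0.33 ± 0.40, adjusted p = 0.696). B2m, the light chain that all class I molecules share, had 24356, 44916 and 52235 reads in tumor eosinophils, against 20756 and 48870 in naive ones (0.28 ± 0.43, adjusted p = 0.766). The pair of naive values spanned most of the tumor range. Without tumor libraries 1 to 3, the log2 changes of H2-K1, H2-D1 and B2m were 0.34, 0.068 and 0.63, and none passed.

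The peptide transporter chain Tap1 had 134, 475 and 1168 reads in tumor eosinophils, against 154 and 85.7 in naive ones. Of the 7 tumor libraries, 6 were above both naive libraries, and the log2 change was 1.82 ± 0.69 (adjusted p = 0.161). Without tumor libraries 1 to 3, the lowest of the 7 for Tap1, the log2 change was 2.65 (adjusted p = 0.00621). Tap2, its partner, was low at 25.2, 42.4 and 93.3 reads in tumor and 43.5 and 19.3 in naive eosinophils (0.71 ± 0.52, adjusted p = 0.486). Tapasin (Tapbp) had 2543, 4279 and 5578 reads in tumor eosinophils, against 3895 and 1218 in naive ones (0.85 ± 0.41, adjusted p = 0.281). Naive library 1 lay within the tumor range and naive library 2 below it, and without naive library 1 the log2 change was 1.69 (adjusted p = 0.0327).

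All 3 immunoproteasome subunits had positive log2 changes in tumor eosinophils, and none passed the threshold. Psmb8, the chymotrypsin-like subunit, had 913, 1488 and 2389 reads in tumor eosinophils and 787 and 1144 in naive ones (0.58 ± 0.36, adjusted p = 0.408). Psmb9, the subunit that takes the place of Psmb6, had 91.0, 141 and 277 reads in tumor eosinophils, against 54.5 and 78.5 in naive ones (1.138 ± 0.41, adjusted p = 0.140). Psmb10, which takes the place of Psmb7, had 173, 227 and 310 reads in tumor eosinophils, against 157 and 110 in naive ones (0.81 ± 0.31, adjusted p = 0.169). For Psmb9 and Psmb10 no tumor library reached down to the naive values, while the tumor range of Psmb8 overlapped the naive one. With Nlrc5, 3 of the 10 genes were higher in tumor eosinophils without overlap, against 7.32% of all genes.

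Nlrc5 had 52.1, 47.5, 43.4, 84.1, 195, 151 and 124 normalised reads in tumor eosinophil libraries 1 to 7, against 13.9 and 22.9 in the naive libraries. Every tumor library was above both naive ones, and libraries 1 to 3 were the lowest of the tumor group. The log2 change was 2.19 ± 0.57 (SE, limma adjusted p = 0.0471). These values rest on 63 to 268 recovered reads per tumor library and on 24 and 19 in the naive libraries. The call stands close to the threshold: it was lost with edgeR on the recovered reads (2.49, adjusted p = 0.0610) and when 7 of the 9 libraries were left out in turn (adjusted p = 0.0530 to 0.209), and without tumor libraries 1 to 3 the change was 2.82 (adjusted p = 0.00671). A long noncoding RNA on the other strand, 9330175E14Rik, overlaps Nlrc5 by 748 bases and had 20.7 to 178 reads in tumor and 19.1 and 1.21 in naive eosinophils (3.01 ± 0.88, adjusted p = 0.0729). No source used here says whether counting used the strand, so reads of the 2 genes in the shared bases cannot be told apart. Whether these bases lie near the 3′ end of Nlrc5, where reads fall, was not tested. Other members also overlap genes on the other strand. Among them were B2m with Patl2 (5398 bases, at most 0.52 reads) and Psmb10 with Gm16156 (2710 bases, 0 reads). Tap1 and Psmb9, both with reads, share 212 bases.

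In tumor macrophages, Psmb10 and Nlrc5 rose, 2 of the 10 genes, against 17.1% of the 11536 genes tested that passed in either direction and 8.49% as higher. Psmb10 averaged 375 ± 69.4 normalised reads in tumor and 238 ± 25.0 in naive macrophages, and Nlrc5 averaged 112 ± 24.6 and 74.2 ± 9.57 (SD, n = 6 and 5). Tap1 was 500 ± 117 in tumor and 359 ± 57.5 in naive macrophages and did not pass after adjustment. The other 7 genes had log2 changes between −0.15 and 0.40 with adjusted p-values of 0.323 or more. The median log2 change of the 10 was 0.20, with 7 positive, against 0.025 over all genes tested. With unadjusted p under 0.05, 3 of the 10 were counted, against 30.4% of all genes.

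H2-K1 had 2054, 3169 and 3319 reads in tumor macrophages (lowest, median and highest of 6), against 2313, 2267, 2737, 3209 and 2088 in naive ones (0.24 ± 0.16, adjusted p = 0.323). H2-D1 had 3431, 3548 and 4045 in tumor macrophages, against 3634, 3694, 4893, 4014 and 4064 in naive ones (−0.14 ± 0.12, adjusted p = 0.471). B2m had 18212, 21312 and 29462 in tumor macrophages, against 23221, 12934, 29341, 17214 and 21045 in naive ones (0.17 ± 0.22, adjusted p = 0.654). The tumor and naive ranges overlapped for all 3. Within set A, tumor B2m (18212 to 22362) was above naive B2m (12934 and 17214), and within set B the ranges overlapped.

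Tap1 had 343, 508 and 627 reads in tumor macrophages, against 301, 332, 421, 420.5 and 319 in naive ones (0.46 ± 0.17, adjusted p = 0.0845). Of the 6 tumor libraries, 4 were above all naive ones. Leaving out tumor library 1 gave 0.56 (adjusted p = 0.0270). Tap2 had 38.5, 133 and 168 reads in tumor macrophages, against 39.2, 149, 55.3, 163 and 51.6 in naive ones (0.40 ± 0.43, adjusted p = 0.578). Its values divided by library set. Tap2 was 130 to 168 in tumor and 149 and 163 in naive libraries of set A, and 38.5 and 65.6 in tumor and 39.2 to 55.3 in naive libraries of set B. With a term for the sets the log2 change was −0.023 (adjusted p = 0.940). Tapbp had 2218, 2381 and 3403 reads in tumor macrophages, against 2632, 2020.4, 2998, 1951 and 2200.4 in naive ones (0.12 ± 0.15, adjusted p = 0.642).

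Psmb10 had 290.2, 329, 345, 375, 475 and 437 reads in tumor macrophage libraries 1 to 6, against 210.4, 254, 235, 271 and 219 in naive libraries 1 to 5. Every tumor library was above every naive one, which 5.19% of all genes showed. The log2 change was 0.64 ± 0.14 (adjusted p = 0.00595). A limma fit with a term for the sets gave 0.56 (adjusted p = 0.00276). The sets were drawn from the spread of these same libraries, so the smaller p-value is no separate support. The other immunoproteasome subunits, Psmb8 and Psmb9, did not pass. Psmb8 had 1142, 1726 and 2156 reads in tumor macrophages, against 1781, 1567, 2558, 1491 and 1736 in naive ones (−0.15 ± 0.18, adjusted p = 0.628). Psmb9 had 112, 218 and 305 in tumor macrophages, against 182, 253, 246, 241 and 191 in naive ones (−0.06 ± 0.21, adjusted p = 0.879).

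Nlrc5 had 83.9, 140, 88.8, 109, 142 and 106 reads in tumor macrophage libraries 1 to 6, against 87.4, 76.7, 72.1, 74.3 and 60.7 in naive ones. Of the 6 tumor libraries, 5 were above all naive ones, and tumor library 1 was below naive library 1. The log2 change was 0.56 ± 0.17 (adjusted p = 0.0350). The call was lost when 8 of the 11 libraries were left out in turn (log2 changes of 0.49 to 0.58, adjusted p = 0.0550 to 0.0833). Within set A tumor values (88.8 to 142) were above naive ones (74.3 and 76.7), and within set B (83.9 and 140 in tumor, 60.7 to 87.4 in naive libraries) they overlapped. The antisense 9330175E14Rik had a log2 change of 0.47 ± 0.61 in macrophages (adjusted p = 0.653).

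**Figure D2:**
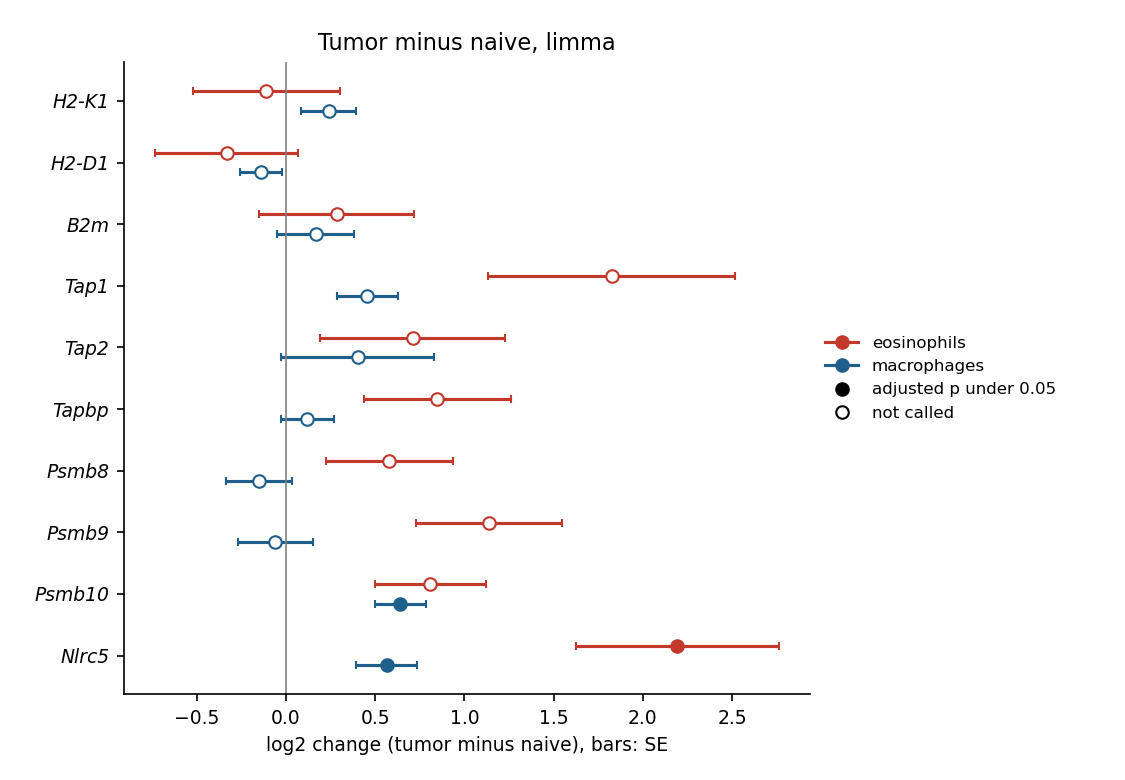
Log2 change (tumor minus naive) of the 10 genes in eosinophils and in macrophages, each from its own limma fit; bars are standard errors and filled points have an adjusted p under 0.05. Nlrc5 is filled in both cell types and Psmb10 in macrophages, and the eosinophil bars are the wider ones.

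Whether tumors changed these genes more in eosinophils than in macrophages was tested as the difference between both changes, in 1 limma fit of all 20 libraries scaled together. None of the 10 passed, against 4.16% of 14992 genes, and edgeR on the same reads called none either; 2 of the 10 had an unadjusted p under 0.05 by limma, against 18.8% of all genes. These were Nlrc5, whose change was 1.54 ± 0.54 (SE) larger in eosinophils on the log2 scale (adjusted p = 0.108), and Psmb9, with 1.09 ± 0.44 (adjusted p = 0.173). For Tap1 the difference was 1.26 ± 0.66 (adjusted p = 0.308), and for Psmb8 and Tapbp 0.62 each (adjusted p = 0.367 and 0.449). The differences of B2m (0.0093), Psmb10 (0.062), Tap2 (0.21), H2-D1 (−0.30) and H2-K1 (−0.46) had standard errors of 0.32 to 0.75. Without tumor eosinophil libraries 1 to 3, the differences of Nlrc5 (2.15, adjusted p = 0.00264) and Tap1 (2.08, adjusted p = 0.00336) passed. These libraries were the lowest of the tumor group for both genes, so leaving them out raises both differences by itself. Without naive eosinophil library 1, which leaves a single naive library, the difference of Tapbp was 1.504.

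An immunoproteasome subunit takes the place of its constitutive counterpart, so the ratio of each pair was followed across libraries: Psmb8 to Psmb5, Psmb9 to Psmb6 and Psmb10 to Psmb7. Ratios were taken of value + 1. Such a ratio can be compared between libraries, and its level says nothing of the ratio of the proteins. In tumor macrophages the ratio of Psmb8 to Psmb5 was lower than in naive ones: it was 1.18, 1.48 and 1.63 (lowest, median and highest) in the 6 tumor libraries, against 1.77, 1.87 and 2.43 in the 5 naive libraries. All 6 tumor libraries were below all naive ones. The mean log2 ratio was 0.53 ± 0.17 in tumor and 1.03 ± 0.22 in naive macrophages (SD), a difference of −0.50 (two-sided exact permutation test, p = 0.00433, the smallest that 462 divisions of 11 libraries allow; 0.0260 adjusted over the 6 ratios tested). The ratio was 1.18 to 1.58 in tumor and 1.85 and 1.87 in naive libraries of set A. In set B it was 1.51 and 1.63 in tumor and 1.77 to 2.43 in naive libraries. With all tumor libraries below all naive ones, the direction within each set was fixed beforehand and adds no support. Behind the lower ratio stood Psmb5 at 1130 ± 192 reads in tumor and 885 ± 137 in naive macrophages (log2 change 0.35, limma adjusted p = 0.123), and Psmb8, given above, with neither passing alone.

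The ratio of Psmb10 to Psmb7 was 0.272, 0.407 and 0.469 in tumor macrophages, against 0.222, 0.246 and 0.389 in naive ones (log2 difference 0.44, exact permutation p = 0.0736, adjusted 0.221). That of Psmb9 to Psmb6 was 0.164, 0.442 and 0.513 in tumor macrophages, against 0.342, 0.421 and 0.734 in naive ones (−0.43, exact permutation p = 0.268, adjusted 0.5). Both ratios differed between the library sets. In set A, Psmb10 to Psmb7 was 0.392 to 0.469 in tumor and 0.358 and 0.389 in naive libraries. In set B it was 0.272 and 0.310 in tumor and 0.222 to 0.246 in naive libraries. Psmb9 to Psmb6 was 0.440 to 0.513 in tumor and 0.726 and 0.734 in naive libraries of set A. In set B it was 0.164 and 0.284 in tumor and 0.342 to 0.421 in naive libraries. These within-set values were examined after the sets had been seen, and no test was made of them. Groups of 2 to 4 libraries often separate without a difference, so these ranges add nothing to the tests over all libraries.

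In eosinophils none of the 3 ratios passed, and 2 naive libraries against 7 cannot give an exact p below 0.0556. The ratio of Psmb8 to Psmb5 was 1.57, 1.36 and 1.49 in tumor eosinophil libraries 1 to 3 and 3.47, 4.42, 4.39 and 3.84 in libraries 4 to 7, against 1.90 and 3.38 in the naive libraries. Libraries 1 to 3, rich in epithelial transcripts, thus lay below both naive libraries, and libraries 4 to 7 above both. The log2 difference over all was 0.043 (exact permutation p = 1). Psmb9 to Psmb6 differed by 0.74 (p = 0.333, adjusted 0.5, exact permutation test) and Psmb10 to Psmb7 by −0.097 (p = 0.944, adjusted 1).

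**Figure D3:**
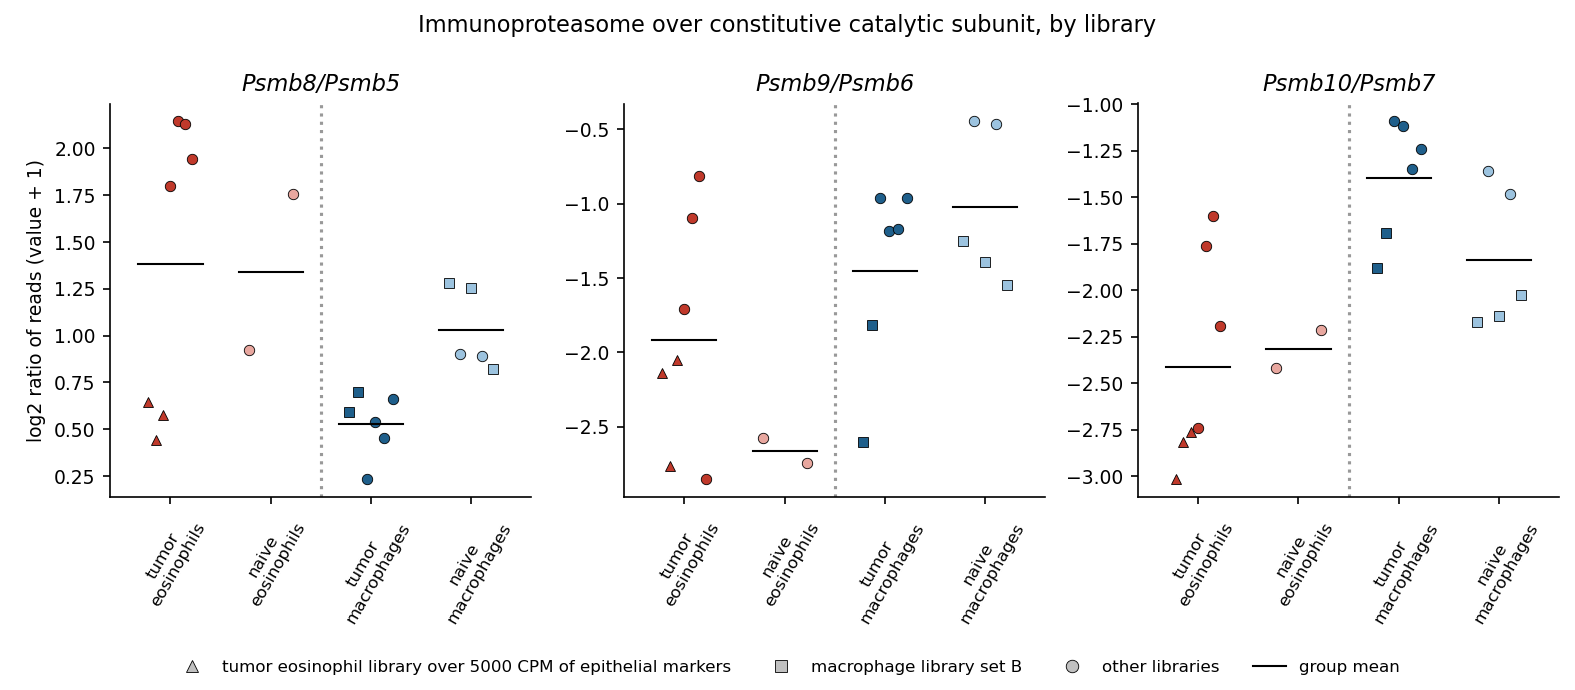
Log2 ratio of reads (value + 1) of each immunoproteasome subunit to its constitutive counterpart, by library, with tumor libraries left of naive ones; bars are group means, triangles tumor eosinophil libraries 1 to 3, squares macrophage set B and circles the others. For Psmb8 to Psmb5, tumor macrophages (mean 0.53) lie below all naive ones (mean 1.03).

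Between the cell types, H2-D1 and B2m were higher in eosinophils than in macrophages both in tumors and in naive colon. Tapbp was higher and Psmb10 lower in tumor eosinophils, and Nlrc5 and Psmb9 were lower in naive eosinophils. All values in this comparison are recovered reads after joint scaling of the 20 libraries. Among tumor libraries, H2-D1 averaged 11249 ± 3805 reads in eosinophils and 4121 ± 352 in macrophages (SD, n = 7 and 6), and all 7 eosinophil libraries were above all macrophage libraries, as for 8.02% of all genes. The log2 difference was 1.37 ± 0.20 (SE, limma adjusted p = 9.33e-06). B2m averaged 51794 ± 14041 in eosinophils and 25512 ± 4847 in macrophages (0.99 ± 0.24, adjusted p = 0.00224), and Tapbp 5222 ± 1401 and 2865 ± 477 (0.83 ± 0.23, adjusted p = 0.00557). Psmb10 was lower in tumor eosinophils, with 303 ± 61.0 against 422 ± 87.2 in tumor macrophages (−0.47 ± 0.18, adjusted p = 0.0330), a call that was lost when 13 of the 20 libraries were left out in turn (adjusted p = 0.0529 to 0.127). These 3 higher and 1 lower of the 10 genes stand against 43.1% of all 14992 genes, 18.9% higher and 24.2% lower, a share close to theirs. Nlrc5 averaged 127 ± 75.3 in tumor eosinophils and 126 ± 29.3 in tumor macrophages (−0.15 ± 0.30, adjusted p = 0.7004), and H2-K1, Tap1, Tap2, Psmb8 and Psmb9 did not pass either (adjusted p = 0.0937 to 0.948). Tumor eosinophil libraries 1 to 3 were the lowest of their group for H2-K1, Tap1 and Psmb10. Without them, H2-K1 (0.86, adjusted p = 0.00152) and Tap1 (0.81, adjusted p = 0.0107) were higher in tumor eosinophils. Psmb10 no longer passed (−0.22, adjusted p = 0.332).

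Among naive libraries, 4 of the 10 genes again differed, 2 as higher and 2 as lower in eosinophils, against 30.2% of all genes, 14.7% higher and 15.5% lower. H2-D1 averaged 13755 ± 2417 reads in naive eosinophils and 4299 ± 518 in naive macrophages (SD, n = 2 and 5; log2 difference 1.67 ± 0.30, adjusted p = 0.000165). B2m averaged 44937 ± 23151 in naive eosinophils and 21822 ± 5975 in naive macrophages (0.98 ± 0.37, adjusted p = 0.0456), with 1 of the 2 eosinophil libraries above all macrophages. Without naive eosinophil library 2 it was 0.43 (adjusted p = 0.555), and the call was also lost without naive macrophage library 2, 4 or 5 or tumor macrophage library 6 (adjusted p = 0.0503 to 0.0938). Nlrc5 was lower in naive eosinophils, at 23.97 ± 6.80 against 78.7 ± 11.1 in naive macrophages (−1.69 ± 0.45, adjusted p = 0.00561). Psmb9 was lower too, at 86.8 ± 16.6 in naive eosinophils and 237 ± 44.4 in naive macrophages (−1.43 ± 0.37, adjusted p = 0.00463). Without naive eosinophil library 1, Nlrc5 (−1.34, adjusted p = 0.0921) and Psmb9 (−1.17, adjusted p = 0.0748) did not pass. H2-K1, at 4830 ± 1414 reads in naive eosinophils and 2683 ± 558 in naive macrophages, had 0.84 ± 0.34 (adjusted p = 0.0638), with both naive eosinophil libraries above all naive macrophages, and it passed when 8 of the 20 libraries were left out in turn (adjusted p = 0.0341 to 0.0495). Tap1 had −1.31 ± 0.55 (adjusted p = 0.0757), with both naive eosinophil libraries below all naive macrophages. Psmb8 was separated in the same way (−0.61, adjusted p = 0.136). With 2 libraries against 5, groups can separate without a difference, and no share of all genes is given here. The separations of H2-K1, Tap1 and Psmb8 therefore add nothing to the tests.

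**Figure D4:**
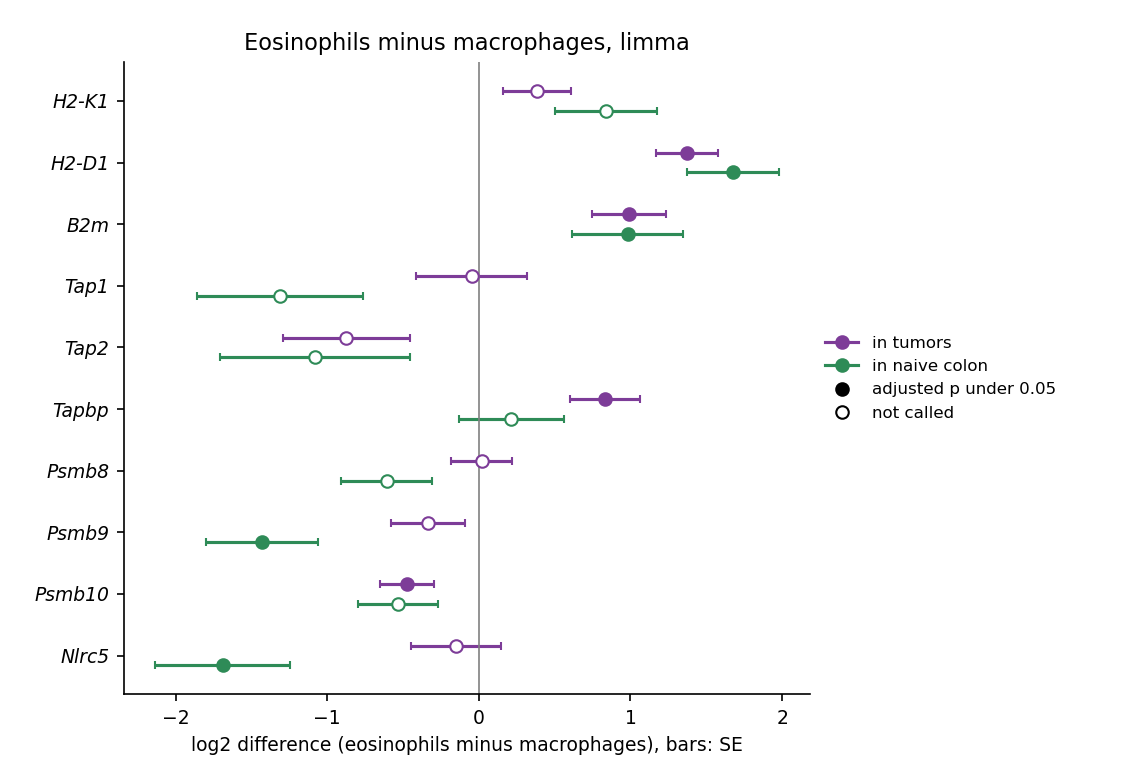
Log2 difference of eosinophils minus macrophages for the 10 genes, in tumors and in naive colon, from the joint limma fit; bars are standard errors and filled points have an adjusted p under 0.05. H2-D1 and B2m are right of 0 in both conditions, and Psmb9 and Nlrc5 lie left of 0 with filled points in naive colon.

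Ordered by mean log2 level over the 4 groups, few neighbours differed beyond their spread. For H2-D1, naive and tumor eosinophils stood above naive and tumor macrophages, and the step from tumor eosinophils to naive macrophages passed (adjusted p = 3e-05). Nlrc5 was lowest in naive eosinophils, followed upward by naive macrophages, tumor eosinophils and tumor macrophages, and the step between naive eosinophils and naive macrophages was the one that passed. For Psmb9, tumor eosinophils stood next above naive eosinophils (adjusted p = 0.0408 in the joint fit, against 0.140 in the eosinophil table alone). For Psmb10, tumor macrophages stood next above tumor eosinophils. All other neighbours, H2-K1, B2m, Tap1, Tap2, Tapbp and Psmb8 included, had adjusted p-values above 0.05.

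Other genes of the route were followed as fixed lists, with the members that passed named by the rule given under the processing. Of all 12984 genes tested in eosinophils, 314 passed as higher in tumors and 287 as lower. Of 11536 in macrophages, 979 passed as higher and 993 as lower. Whether any list held more than these shares was not tested. Of 17 transcription factors of class I genes, 2 rose in tumor eosinophils: Irf1, which binds the interferon-stimulated element of class I promoters (2162 ± 1104 reads in tumor and 363 ± 169 in naive eosinophils, 2.44 ± 0.57, adjusted p = 0.0300), and Irf9, the DNA-binding subunit of an interferon-activated complex (515 ± 147 and 160 ± 77.9, 1.72 ± 0.37, adjusted p = 0.0207). In tumor macrophages Irf1 (1353 ± 222 against 861 ± 129, 0.65 ± 0.15, adjusted p = 0.00662) rose. Irf9 had a log2 change of −0.00298 in macrophages, and its change was larger in eosinophils by 1.61 (adjusted p = 0.0128). The list's median log2 change was 0.63 in eosinophils and 0.16 in macrophages, beside 0.0077 and 0.025 over all genes.

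Of 10 interferon receptors and proximal signalling genes, 2 rose in tumor eosinophils: the feedback inhibitor Socs3 (515 ± 171 reads in tumor and 139 ± 24.5 in naive, 1.82 ± 0.37, adjusted p = 0.0167) and the interferon-gamma receptor chain Ifngr2 (546 ± 103 and 235 ± 96.3, 1.26 ± 0.30, adjusted p = 0.0357), against 2.42% of all genes. The list's median log2 change was −0.071, with 4 of 10 positive, and the receptor chain Ifngr1 (−0.91 ± 0.35, adjusted p = 0.167) and the kinase Jak1 (−0.80 ± 0.34, adjusted p = 0.213) had negative changes that did not pass (both named after their values were seen). In tumor macrophages 1 of 10 rose, Socs1, another inhibitor of this signalling (141 ± 72.5 in tumor and 67.2 ± 27.1 in naive, 1.012 ± 0.33, adjusted p = 0.0452). Of 12 loading and trimming genes tested, Calr, a chaperone of the heavy chain, rose in tumor eosinophils (1058 ± 199 in tumor and 416 ± 380 in naive, 1.71 ± 0.45, adjusted p = 0.0485), and its change was larger there than in macrophages by 1.74 (adjusted p = 0.0242). The chaperone Hspa5 fell in tumor macrophages (−0.67 ± 0.17, adjusted p = 0.0143), 1 of 12. None of 13 other class I molecules tested passed in eosinophils (2 of 13 at an unadjusted p under 0.05). In macrophages 1 of 12 did: Fcgrt, the class I-like receptor for IgG, fell to 187 ± 37.0 reads in tumor, against 531 ± 34.6 in naive macrophages (−1.53 ± 0.15, adjusted p = 5.33e-06), and its changes in the 2 cell types differed by 2.49 (adjusted p = 0.0239).

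The constitutive subunits Psmb5, Psmb6 and Psmb7 had log2 changes of 0.54, 0.39 and 0.91 in tumor eosinophils (adjusted p = 0.407, 0.495 and 0.111) and of 0.35, 0.37 and 0.20 in tumor macrophages (adjusted p = 0.123, 0.224 and 0.425). Their changes differed between the cell types by 0.082, −0.081 and 0.60, and none of the 3 passed in any of these comparisons. Of 11 other subunits of the 20S core, none passed in eosinophils (1 at an unadjusted p under 0.05), and Psma1 (0.47 ± 0.15, adjusted p = 0.0398) and Psmb2 (0.57 ± 0.18, adjusted p = 0.0369) rose in tumor macrophages. Of 9 activators and assembly factors, Psme4, which caps the core in place of the regulatory particle, fell in tumor eosinophils to 104 ± 13.2 reads, against 247 ± 98.6 in naive ones (−1.18 ± 0.31, adjusted p = 0.0474), and its changes in the 2 cell types differed by −1.68 (adjusted p = 0.00603). None of the 9 passed in macrophages (1 at an unadjusted p under 0.05). Among receptors that bind class I molecules, Lilra6 (15.4 ± 6.57 reads in tumor and 76.4 ± 21.3 in naive, −2.29 ± 0.32, adjusted p = 0.000181) and Klrd1 (13.9 ± 7.39 and 35.0 ± 11.1, −1.35 ± 0.35, adjusted p = 0.0145) fell in tumor macrophages, 2 of 6 tested, and none of 5 passed in eosinophils (2 at an unadjusted p under 0.05). Klrd1 is a receptor chain of natural killer cells, and genes of T and NK cells summed to 84.8 to 203 CPM in tumor and 416 to 581 in naive macrophages. The part of such cells in that difference was not tested.

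Between the cell types, the same lists held differences in both directions. Of all 14992 genes, 18.9% were higher and 24.2% lower in tumor eosinophils, and 14.7% and 15.5% in naive ones. Whether any list held more than these shares was not tested. Of 14 other class I molecules tested, 4 were higher in tumor eosinophils than in tumor macrophages. These were H2-Q6 (2.23), H2-Q7 (1.73), H2-Q10 (1.86) and H2-T3 (1.75), as log2 differences. Copies of the H2-Q genes are nearly identical, and their counts are uncertain for each copy. Another 4 were lower: H2-M2 (−5.90), H2-M3 (−2.74), Fcgrt (−1.87) and the lipid-presenting Cd1d1 (−1.43). Among naive libraries none of the 14 was higher in eosinophils, and H2-M2 (−6.08), Fcgrt (−4.36) and H2-M3 (−3.80) were lower. H2-M2 averaged 17.9 ± 11.1 jointly scaled reads in tumor eosinophils and 921 ± 249.1 in tumor macrophages.

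Of the 12 genes tested of the loading and trimming list, 8 were lower in tumor eosinophils than in tumor macrophages. Among them were Ggta1 (−3.40), the thiol reductase Pdia3 (−2.25), Hspa5 (−1.54) and the lectin chaperone Canx (−1.08). Ggta1 is a galactosyltransferase and no gene of peptide loading or trimming, and all counts of this list include it. The peptidase Npepps (1.52) and Bcap31 (0.56) were higher. In naive libraries 6 were lower in eosinophils, with Ggta1 (−3.64), Pdia3 (−3.02), Calr (−2.44) and Hspa5 (−1.62) named by the rule, and Npepps (2.16) was higher. Psmb5 was lower in eosinophils in tumors (−0.84, adjusted p = 0.000997) and in naive colon (−0.92, adjusted p = 0.0157), and Psmb7 was higher in tumors (0.54, adjusted p = 0.0214) with −0.055 in naive colon. Psmb6 did not pass (0.13 and 0.21). Of the 11 other core subunits, 6 were lower in tumor eosinophils, among them Psmb2 (−1.13), Psma7 (−0.996), Psma2 (−0.98) and Psmb1 (−0.96), and 2 in naive ones, Psma7 (−1.89) and Psmb1 (−0.77). Of the 9 activators and assembly factors, Psme2 (−1.007), Psmg4 (−0.96), Pomp (−0.95) and Psme4 (−0.86) were lower in tumor eosinophils. In naive eosinophils Psmg1 (−1.92), Psme2 (−1.50), Psmg3 (−1.35) and Pomp (−1.31) were lower and Psme4 (0.82) was higher.

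Irf7, the interferon-induced amplifier of type I interferon genes, was higher in eosinophils in tumors (3132 ± 1010 jointly scaled reads against 761 ± 185 in macrophages, 2.001) and in naive colon (1.203), as was Irf2 (0.51 and 0.87), and Irf9 was higher in tumors (1.26). Irf8, a factor of the macrophage lineage, was lower in both (−2.49 and −4.17), as was Rfxap, a subunit of the complex that binds the X box (−0.92 and −1.10). Creb1 (−0.62) and Nfyc (−0.43), of the X2- and Y-box binding complexes, were lower in tumors. The kinase Jak1 was higher in both (1.07 and 1.85) and Socs3 lower in both (−1.87 and −3.52). The receptor chains Ifngr1 (−0.91) and Ifnar2 (−0.65) and the kinase Tyk2 (−0.74) were lower in tumor eosinophils, and Ifngr2 in naive ones (−0.98). Among receptors of class I and its relatives, Lilra6 (5.5003 and 4.46) and Pira2 (2.53 and 3.30), members of one family with similar sequences, were higher in eosinophils in tumors and in naive colon, and Lilra5 was lower (−5.44 and −7.13). Klrd1 was lower in tumor eosinophils (−3.26), and it had 0 reads in both naive eosinophil libraries against 37.0 ± 11.1 in naive macrophages.

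The genes whose deviations from the group means most resembled the mean of the 10 were looked for among genes with at least 100 normalised reads on average. In the 9 eosinophil libraries (3697 genes compared) these were Gdap10 (Pearson r = 0.990, Spearman rho = 0.983), Rsad2 (r = 0.981), Sema4d (r = 0.981), Rilpl2 (r = 0.976) and Gbp7 (r = 0.976). In the 11 macrophage libraries (4223 genes) they were Klrb1b (r = 0.904, rho = 0.845), Cd40 (r = 0.904), Nr4a3 (r = 0.881), Rpa2 (r = 0.878) and Rpl36al (r = 0.876). Rsad2 and Gbp7 are interferon-induced genes. The points share libraries, depth and the sets described above, with tumor eosinophil libraries 1 to 3 at the low end, and the values describe these libraries without a test.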

How the data were processed

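Per the submitters' processing notes, the tools were DESeq2 1.14.1, HTSeq 0.6.1, TopHat2 2.1.0 with Bowtie2 2.2.6, FastQC 0.11.5 and Trim Galore, with build GRCm38.p5; no source used here gives settings or use of strand. Per the labels' protocols, a sample comprised 3 technical replicates, each with another primer pool. The authors deposited 1 table per cell type of normalised signal, gene read counts divided by a factor per library. All 374526 non-zero values (100.0%) came out as whole reads within 0.1 read, so the counts were recovered; edgeR's quasi-likelihood test on them called 532 genes in eosinophils and 1951 in macrophages. Entries named by bare numbers (27) made up 0.1323% of reads or less in each library, and 94.1% of names matched GENCODE M21.

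In R 4.3.3, limma 3.58.1 (eBayes with trend, two-sided) was run on log2(value + 1) per cell type, over genes reaching 10 in at least 2 eosinophil or 5 macrophage libraries, with Benjamini-Hochberg adjustment over all genes. This scale understates the change of low genes. Recovered reads of all 20 libraries, scaled by TMM (edgeR 4.0.16) and reaching 10 in at least 2, gave the differences between cell types. Ratios were tested by exact permutation. Alternatives were edgeR, DESeq2 1.42.0, voom, other pseudocounts, scalings and filters, a replicate block and libraries left out. Named were the 10 genes, Psmb5 to Psmb7, up to 4 called genes per list and direction with the smallest p, and the 5 likest genes per cell type. The members and lists were chosen with earlier results of these data known. A result for 1 gene of the lists is not reported here. In the last 500 bases of the transcripts, 9.53% of 50-base words of H2-D1 and 0.443% of those of H2-K1 also occur elsewhere, H2-K1 and H2-D1 sharing some, so a few of their reads could be misassigned.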

Additional observations from a re-analysis of the deposited data

Results flagged for a closer look

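Among 39 sets of values of a gene or ratio in a group of 4 to 10 libraries, 2 held a library whose gap to its nearest neighbour exceeded Dixon's 95% critical value, where chance gives about 1 in 20. H2-K1 in tumor macrophage library 1 was 2054 normalised reads, with the next library at 2871 (gap over range 0.646, n = 6). Psmb8 in naive macrophage library 3 was 2558 normalised reads, with the next at 1781 (0.728, n = 5).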

How the results depend on the processing

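Genes called in eosinophils were 601, and 1386 with DESeq2, 197 with voom and 93 (without naive library 2) to 953 (without naive library 1) with 1 library left out. Of the 10 genes 1 was called there, 0 with a pseudocount of 5, no filter, edgeR or voom, 3 with DESeq2 (Nlrc5, Tap1 and Psmb9), 2 without the 2 tumor libraries richest in mitochondrial or the 3 richest in epithelial transcripts (these 3, like the set term, were chosen after the values were seen), and 0 to 1 with 1 library left out. In macrophages 1972 genes were called (1514 to 1937 with 1 left out), and 2 of the 10 (1 with no filter, 1 to 3 with 1 left out). For the difference between cell types 624 genes were called (405 with no filter, 168 to 1778 with 1 left out), and 0 of the 10 (2 without the 3 libraries, 0 to 1 with 1 left out).

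Replicate numbers did not clearly pair the libraries (correlation of same-numbered deviations −0.31 to 0.128). In eosinophils both naive libraries correlated best with the tumor library of their number (0.128 and 0.124), and in macrophages none did. Since only numbers 1 and 2 occur in both eosinophil groups, the eosinophil change under a block rests on those libraries alone. A replicate block gave 1130 genes and 0 of the 10 in eosinophils, 1233 and 1 in macrophages, and turned B2m to −0.068 in eosinophils, the differences of B2m to −0.042, Tap2 to −0.29 and Psmb10 to −0.082, and Psmb8 between tumor cell types to −0.026. Between naive cell types B2m lost its call under the block (1.007, adjusted p = 0.120) and H2-K1 gained one (1.098, adjusted p = 0.0176).

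Other reversals were of small changes. In eosinophils H2-K1 became 0.000483 with edgeR, 0.11 without the 2 mitochondrial-rich and 0.34 without the 3 epithelial-rich libraries, where H2-D1 became 0.068 and its difference between cell types 0.089. In macrophages Psmb9 became 0.000213 with TMM scaling and Tap2 −0.023 with the set term. Between tumor cell types Tap1 became 0.055 with DESeq2 size factors, 0.30 with edgeR and 0.81 without the 3 libraries, and Nlrc5 0.056 with edgeR and 0.50 without the 3. With 1 library left out, eosinophil H2-K1 ran from −0.48 to 0.26 and B2m from −0.33 to 0.90, macrophage Psmb9 from −0.17 to 0.12, and the differences of B2m from −0.56 to 0.61, Tap2 from −0.38 to 0.82, Tapbp from −0.23 to 1.504 and Psmb10 from −0.21 to 0.36. Between tumor cell types Tap1 ran from −0.22 to 0.27, Psmb8 from −0.083 to 0.18 and Nlrc5 from −0.31 to 0.059, and between naive ones Tapbp from −0.62 to 1.12. Eosinophil ratios ran from −0.37 to 0.46 (Psmb8 to Psmb5) and −0.23 to 0.00482 (Psmb10 to Psmb7), and Psmb10 to Psmb7 in macrophages from 0.36 to 0.56 (exact permutation p = 0.0381 to 0.152). The cause was not tested. Psmb10 in macrophages passed, and Psmb8 to Psmb5 kept its direction (−0.55 to −0.44, exact permutation p = 0.00794 to 0.00952), with any 1 library left out. Since all tumor macrophages lay below all naive ones for Psmb8 to Psmb5, that direction was fixed beforehand. Psmb10 between tumor cell types and B2m between naive ones did not pass with no filter (adjusted p = 0.0617 and 0.112) or DESeq2 size factors (0.0765 and 0.0760). Only 2 naive eosinophil libraries limit every comparison that uses them, and Nlrc5 rests there on 24 and 19 reads.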
